A study of Ovis aries with 5 samples.

Results

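The chemokine genes CXCL8 and CXCL10 and the chemokine receptor gene CXCR4 were followed in dendritic cells (DC) that migrate from the skin of sheep in the afferent lymph. They were taken as every non-control probe whose gene name or description in the array files is one of these genes or its older name. They are 3 of the 743 genes that could be named, and gave 5 of the 15008 distinct probes: 2 for CXCL8, named IL8 in the files, 1 for CXCL10, and 2 for CXCR4, which carry the older name NPY3R and were assigned through a RefSeq synonym. CXCL10 was printed in 5 spots per array and the other probes in 1 spot. A further 14 probes of 7 other chemokine and chemokine receptor genes served as background.

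CD26+ cells were lymph DC sorted as CD1b+CD26+, with 1 array each from sheep 30066 and sheep 10081. CD26- cells were the CD1b+CD26- cells of the same 2 animals, also with 1 array each. Both were sorted cells without a stated culture or stimulus, and the labels give no age, breed or purity. Each sorted sample was labelled with Cy3 and hybridised against 1 common Cy5 RNA, described for each sample as unsorted enriched lymph DC of different animals and called total DC here, and another array held total DC in both dyes (the self-hybridisation). The labelling protocol instead names a culture of LP-1cl1 cells as the source of the Cy5 RNA, a conflict that the files do not settle, so that "total DC" is the sample labels' term.

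Chemokines are small secreted proteins that direct migrating leukocytes through G protein-coupled receptors. CXCL8 (interleukin 8) attracts neutrophils and is a target of NF-kappa-B in inflamed tissue. CXCL10 is induced by interferons and attracts activated T cells and NK cells through CXCR3. CXCR4 is the receptor of CXCL12 and takes part in the movement of skin DC into lymphatic vessels. CD26, the surface protein used for the sort, is the protease dipeptidyl peptidase 4, which in human trims the amino terminus of several chemokines, CXCL10 and CXCL12 among them. The arrays measured RNA and not protein.

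The probe sequences are shown because they define what each signal can count and which probes repeat each other. They are copied from the array files, and capitals mark the run of bases that the probes of a gene share. The CXCL8 probes are offset by 40 bases and share 20 bases. Of each, 30 of its 60 bases are given, bases 31 to 60 of the first and bases 1 to 30 of the second.
CXCL8 probe 1: ctggcctagtCTTGCCCTTATTATGCAATG
CXCL8 probe 2: CTTGCCCTTATTATGCAATGatgtgttgaa
CXCL10, bases 1 to 30 (no second probe, so no capitals): gcaggctatgtaagacaaatatgctaaatg
CXCR4 probe 1: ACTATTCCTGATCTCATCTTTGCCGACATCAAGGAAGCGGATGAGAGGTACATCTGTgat
CXCR4 probe 2: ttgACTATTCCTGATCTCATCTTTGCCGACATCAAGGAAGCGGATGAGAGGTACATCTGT

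The CXCR4 probes share 57 of 60 bases, so that they are near repeats of 1 measurement, whereas most of each CXCL8 probe is its own. None of the 5 probes shares a run of 20 bases with a probe of another named gene. In the order of protein-coding genes of the RefSeq assembly ARS-UI_Ramb_v3.0, CXCL10 lies between CXCL9 and CXCL11, the other interferon-inducible CXCR3 ligands. CXCL1, which like CXCL8 attracts neutrophils, lies in the same gene cluster as CXCL8, with PPBP between them. No genome of the array design's build was used, so coordinates are not given.

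The 5 arrays lay on 1 slide, with the median Cy3 signal between 204 and 307 units over a median local background of 36.5 to 39 units. All 5 chemokine and receptor probes were well above background in Cy3 on 5 of 5 arrays, none was saturated, and all passed the filter on dim probes, which 13252 of the 15008 probes passed. For CD1B, the other sort marker, 3 probes were examined. A pair of them, named LOC443441 in the files and with Cy3 signals of 22810 to 51288 units, was well above background on 5 of 5 arrays. The probe named CD1B in the files was well above background on 1 of 5. Of 20 DC markers listed, CD86, CD80 and CD40 were well above background on all 5 arrays, FCER1A on 4, and the others except CD1B had no named probe. The arrays of sheep 30066 and the self-hybridisation lay in slide row 1 and those of sheep 10081 in row 2. Both CD26- arrays lay in slide column 3, both CD26+ arrays in column 4 and the self-hybridisation in column 2. The animal therefore cannot be told apart from the slide row, nor the subset or total DC from the slide column.

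Both sheep had less CXCL8 RNA in CD26+ than in CD26- cells, and total DC had more than either subset. Before correction, the Cy3 signal of CXCL8 probe 1 was 493 and 894 units in CD26+ cells of sheep 30066 and sheep 10081. It was 3967 and 2499 units in CD26- cells of the same sheep, and 11438 units in total DC. The CD26+ signals were thus the lowest of the 5, although the Cy5 signal on the same spots stayed between 18999 and 31534 units on every array.

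On the normalised scale, log2 of Cy3 over Cy5, CXCL8 probe 1 stood at -4.12 and -3.87 in CD26+ cells of sheep 30066 and sheep 10081. It stood at -1.49 and -2.14 in CD26- cells of these sheep, and at -0.05 on the self-hybridisation. CXCL8 probe 2 gave log2 ratios of -4.26 and -4.02 in CD26+ cells, -1.80 and -2.49 in CD26- cells and -0.34 on the self-hybridisation. With either probe both CD26+ arrays lay below both CD26- arrays, as for 16.6% of all probes, and the probes differed by at most 0.35 on any array. In sorted bulk samples, fewer cells with a transcript and less of it per cell cannot be told apart.

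**Figure D1:**
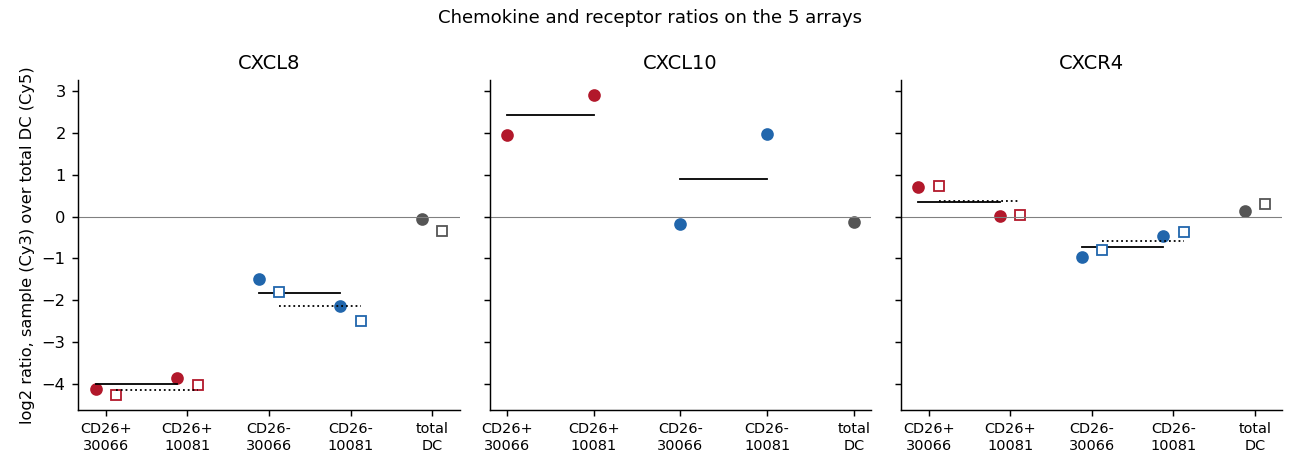
Log2 ratio of the Cy3 sample over the Cy5 total DC (vertical axis) on each of the 5 arrays for CXCL8, CXCL10 and CXCR4. Filled circles are the first or only probe and open squares the second, red is CD26+, blue CD26- and grey the self-hybridisation, and horizontal lines are group means (solid for the first probe, dotted for the second). CXCL8 runs from about -4 in CD26+ cells to near 0 in total DC, CXCL10 of CD26- cells differs between the sheep (-0.17 and 1.98), and CXCR4 of CD26+ cells lies above that of CD26- cells.

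The mean log2 ratio of CXCL8 probe 1 was -3.99 ± 0.18 in CD26+ cells and -1.82 ± 0.46 in CD26- cells (SD, n = 2 sheep each). The difference of -2.18 (SE 0.41, 95% interval -3.27 to -1.08) is a 4.52-fold lower level in CD26+ cells. Within sheep 30066 it was -2.63 and within sheep 10081 it was -1.73. Probe 2 gave -1.998 (SE 0.42, interval -3.11 to -0.88), with -2.46 in sheep 30066 and -1.53 in sheep 10081. Both CXCL8 probes were thus at least 2-fold lower in CD26+ cells of both sheep, as were 2.97% of all probes measured in both sheep.

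The difference of CXCL8 did not pass the test over all probes. limma gave unadjusted p-values of 0.0046 and 0.0068 for the CXCL8 probes and a Benjamini-Hochberg adjusted p of 0.778 for both, against a threshold of 0.05. None of the 5 probes was called between the subsets, nor was any other, so the share of probes called is 0.0%, and the smallest adjusted p of any probe was 0.767. At an unadjusted p under 0.05 limma held 743 probes, 5.61% of those tested, and the 2 CXCL8 probes were among them while the CXCL10 and CXCR4 probes were not. With the sheep as a block the unadjusted p of CXCL10 was under 0.05 too, as given with its values. A difference at least as large as that of CXCL8 probe 1, in either direction, was seen for 1.45% of probes, and the median size over all probes was 0.37.

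CXCL8 was also set against total DC. CD26+ cells had 15.4-fold less CXCL8 than total DC with probe 1 (log2 difference -3.94, SE 0.50) and 13.9-fold less with probe 2 (-3.80, SE 0.51). CD26- cells had 3.40-fold less than total DC with probe 1 (log2 difference -1.77, SE 0.50) and 3.49-fold less with probe 2 (-1.80, SE 0.51). In order, CXCL8 was therefore lowest in CD26+ cells, then CD26- cells, then total DC, with every array of a group on the same side of its neighbour. The share of all probes in that full order was not counted. Taken alone, both CD26+ arrays lay below both CD26- arrays for 16.6% of probes, and CD26- cells of both sheep lay below total DC for 38.2%. Total DC is 1 array without a replicate, and its SE assumes that it would vary like the sorted samples. At least 2-fold lower values in both sheep were found for 8.8% of probes in CD26+ cells and 7.52% in CD26- cells against total DC.

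In the limma test, CXCL8 of CD26+ cells against total DC had an adjusted p of 0.305 for both probes. That was the smallest adjusted p in that comparison, but other probes shared it, those of TNF and FCER1A among them. By unadjusted p the CXCL8 probes ranked 34 and 46. For CXCL8 of CD26- cells against total DC the limma adjusted p was 0.400 for both probes. No probe was called in either comparison (0.0%), while unadjusted p-values under 0.05 were found for 11.3% of probes in CD26+ cells and 10.6% in CD26- cells. Each comparison with total DC rests on 1 self-hybridisation array, which both share. When its value was not subtracted, so that each probe's dye effect stays in and the error of that array does not count, both CXCL8 probes were called, with adjusted p of 0.0276 in CD26+ cells and 0.0441 and 0.0364 in CD26- cells. The number of probes called is then far larger too, 1173 in CD26+ cells and 1089 in CD26- cells. With subtraction, 13193 probes were tested in each comparison and 0 called.

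Total DC came from unsorted lymph DC of different animals per the sample labels, or from a cultured cell line per the labelling protocol. The sort, the animal and the source of that RNA cannot be told apart in these comparisons. Markers of other myeloid cells were examined beside CXCL8. LTF, the only 1 of 13 neutrophil markers with a named probe, had log2 ratios of 0.17 and 0.01 in CD26+ cells, 0.27 and 0.10 in CD26- cells and 0.16 on the self-hybridisation, and was well above background on 3 of 5 arrays. CD14 and LYZ were the 2 of 10 monocyte and macrophage markers with a named probe. Their median log2 ratio was -0.40 and -1.03 in CD26+ cells, -0.46 and -0.04 in CD26- cells and 0.07 on the self-hybridisation. CD14 alone stood at -1.48 and -1.55 in CD26+ cells, -1.16 and 0.32 in CD26- cells and 0.21 on the self-hybridisation. LYZ stood at 0.68 and -0.50 in CD26+ cells, 0.25 and -0.40 in CD26- cells and -0.07 on the self-hybridisation, so the 2 markers did not move together. The part of such cells in the CXCL8 values was not tested.

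CXCL10 RNA was higher in CD26+ than in CD26- cells of each sheep, with a wide difference between the sheep, so that the subsets overlapped across animals. The Cy3 signal of CXCL10 was 732 and 1454 units in CD26+ cells of sheep 30066 and sheep 10081. It was 196 and 865 units in CD26- cells and 165 units in total DC. The Cy5 signal stayed between 333 and 351 units, so that the differences between arrays lie in the Cy3 sample.

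The log2 ratio of CXCL10 was 1.96 and 2.91 in CD26+ cells of sheep 30066 and sheep 10081. In CD26- cells it was -0.17 and 1.98, and on the self-hybridisation -0.14. CD26- cells of sheep 10081 thus matched CD26+ cells of sheep 30066, whereas CD26- cells of sheep 30066 lay at the level of total DC.

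The 5 CXCL10 spots of an array lay close together. Their log2 ratios ran from 1.86 to 2.05 and from 2.56 to 3.27 in CD26+ cells of sheep 30066 and sheep 10081. In CD26- cells they ran from -0.26 to -0.06 and from 1.90 to 2.17, and on the self-hybridisation from -0.20 to -0.07. The SD between spots was 0.05 to 0.26, smaller than the gap of 2.15 between the CD26- arrays of the 2 sheep. Spots of 1 array share its RNA, labelling, hybridisation and slide row and are not replicates of a subset, so their spread covers none of these.

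**Figure D2:**
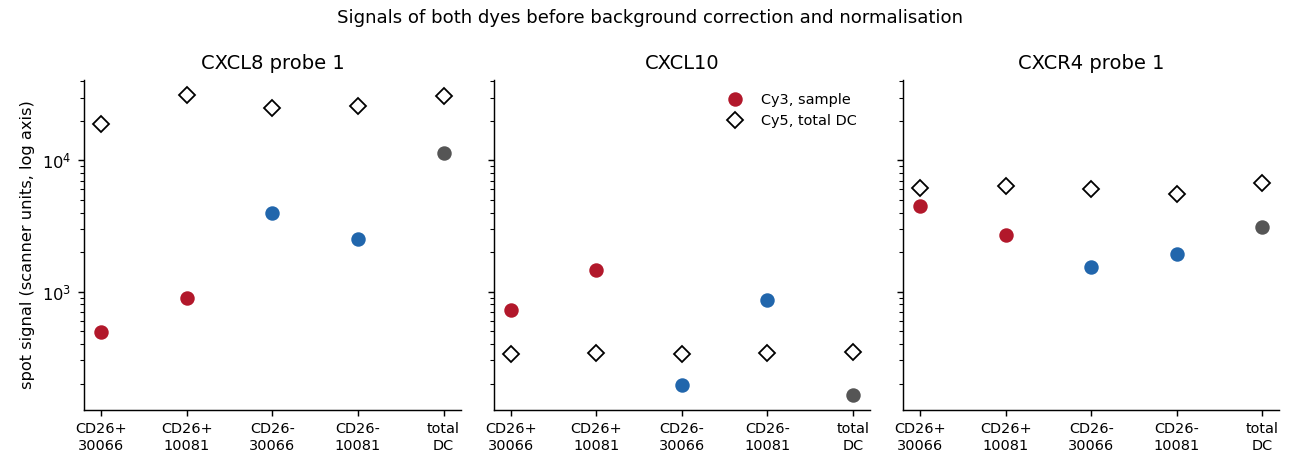
Spot signal in scanner units on a log axis, before background correction and normalisation, for the first CXCL8 probe, CXCL10 and the first CXCR4 probe on each array. Filled circles are Cy3, the sample (red CD26+, blue CD26-, grey total DC), and open diamonds are Cy5, total DC on every array. The Cy5 points of CXCL8 stay between 18999 and 31534 units while its Cy3 points span 493 to 11438 units, and the Cy3 points of CXCL10 span 165 to 1454 units.

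The mean log2 ratio of CXCL10 was 2.44 ± 0.67 in CD26+ cells and 0.91 ± 1.52 in CD26- cells (SD, n = 2 sheep each). The difference of 1.53 (SE 0.86, 95% interval -0.78 to 3.84) is 2.89-fold, and limma gave an adjusted p of 0.945. Within sheep 30066 the difference was 2.12 and within sheep 10081 it was 0.93. Higher values in CD26+ cells of both sheep were found for 27.6% of probes, and for 2.42% the difference was at least 2-fold in both, which CXCL10 missed in sheep 10081. With the sheep as a block, which leaves the difference between animals out of the error, the SE was 0.44, the unadjusted p 0.036 and the limma adjusted p 0.585, so CXCL10 was not called in either fit. Leaving out the CD26- array of sheep 10081 gave 2.60 and leaving out that of sheep 30066 gave 0.46.

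Against total DC, CXCL10 in CD26+ cells was 5.96-fold higher (log2 difference 2.58, SE 1.06, 95% interval -0.26 to 5.41, limma adjusted p = 0.467). The difference was 2.10 in sheep 30066 and 3.05 in sheep 10081, at least 2-fold in both, as for 9.9% of probes. In CD26- cells the difference from total DC was 1.05 (SE 1.06, adjusted p = 0.816), made up of -0.03 in sheep 30066 and 2.12 in sheep 10081. In order, the mean was highest in CD26+ cells, then CD26- cells, then total DC, but the arrays of the subsets overlapped and neither step passed the test.

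T cell markers were examined beside CXCL10, and their members went different ways. Of 14 such markers 6 had a named probe, with a median log2 ratio of -0.04 and 1.61 in CD26+ cells of sheep 30066 and sheep 10081, 0.56 and 1.21 in CD26- cells, and 0.12 on the self-hybridisation. CD3D, a chain of the T cell receptor complex, stood at 0.10 and 3.18 in CD26+ cells, 1.41 and 4.11 in CD26- cells and -0.11 on the self-hybridisation. CD247, another chain of that complex, stood at -0.30 and -1.44 in CD26+ cells, -1.92 and -2.53 in CD26- cells and -0.03 on the self-hybridisation, so that it was lower in sheep 10081 where CD3D was higher. CD26+ minus CD26- was positive in both sheep for CD247 (1.63 and 1.09) and CD5 (2.31 and 0.83), like CXCL10. It was negative in both for CD3D (-1.31 and -0.93), GATA3 (-3.02 and -0.12) and CD4 (-0.063 and -0.062), and of mixed sign for CD3E (-0.27 and 0.97). The part of T cells in the CXCL10 values was not tested.

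CXCR4 RNA was higher in CD26+ than in CD26- cells of both sheep, with total DC between the CD26- cells and the upper CD26+ array. The Cy3 signal of CXCR4 probe 1 was 4461 and 2697 units in CD26+ cells of sheep 30066 and sheep 10081, against 1550 and 1947 units in CD26- cells and 3112 units in total DC. Its Cy5 signal lay between 5499 and 6681 units.

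The log2 ratio of CXCR4 probe 1 was 0.71 and 0.0040 in CD26+ cells of sheep 30066 and sheep 10081, and -0.97 and -0.48 in CD26- cells. Probe 2 gave 0.72 and 0.05 in CD26+ cells, and -0.79 and -0.37 in CD26- cells. The self-hybridisation stood at 0.13 with probe 1 and 0.29 with probe 2. The subsets did not overlap with either probe, and the probes differed by at most 0.19 on any array. Both CD26+ arrays lay above both CD26- arrays for 15.0% of all probes.

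The mean log2 ratio of CXCR4 probe 1 was 0.36 ± 0.50 in CD26+ cells and -0.72 ± 0.35 in CD26- cells (SD, n = 2 sheep each). The difference of 1.08 (SE 0.44, 95% interval -0.11 to 2.28) is 2.12-fold, with a limma adjusted p of 0.884. It was 1.69 in sheep 30066 and 0.48 in sheep 10081 on the log2 scale. Probe 2 gave 0.96 (SE 0.43, interval -0.19 to 2.11, adjusted p = 0.910), and 0.62 when CD26+ cells of sheep 30066 were left out. A difference at least as large as that of probe 1, in either direction, was seen for 12.8% of probes.

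Against total DC, CXCR4 in CD26+ cells differed by 0.23 (SE 0.54) with probe 1 and 0.09 (SE 0.52) with probe 2, with limma adjusted p of 0.929 and 0.974. The sheep went opposite ways with probe 1, 0.58 in sheep 30066 and -0.13 in sheep 10081, and median centring in place of loess turned the sign of the mean (-0.087), so CD26+ cells and total DC did not differ beyond the spread. The 95% interval of probe 1, -1.23 to 1.69, does not show that the levels were alike. CXCR4 in CD26- cells lay below total DC, with a log2 difference of -0.86 (SE 0.54) for probe 1 and -0.87 (SE 0.52) for probe 2 and adjusted p of 0.670 and 0.655. That difference had the same sign in both sheep, -1.11 in sheep 30066 and -0.61 in sheep 10081 with probe 1, as for 38.2% of probes.

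**Figure D3:**
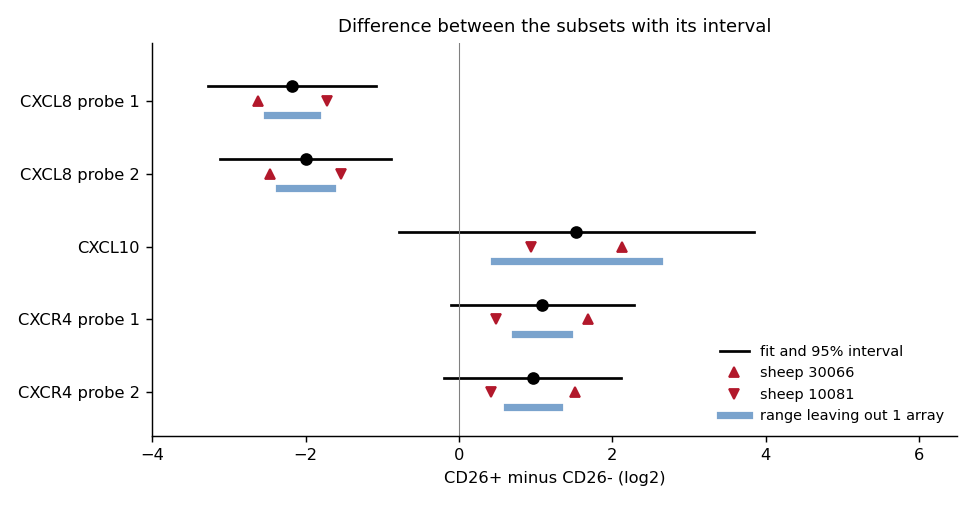
CD26+ minus CD26- difference in log2 ratio (horizontal axis) for the 5 probes. Black circles and lines are the limma estimate and its 95% interval, red triangles the difference within each sheep (pointing up for sheep 30066, down for sheep 10081), and blue bars the range when 1 array at a time was left out. In this fit, which has no sheep term, only the intervals of the CXCL8 probes, -3.27 to -1.08 and -3.11 to -0.88, lie on 1 side of 0. In all 5 probes, which come from 3 genes, sheep 30066 shows the larger difference, and the share of all probes that did so was not counted.

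All 5 probes showed a larger difference between the subsets in sheep 30066 than in sheep 10081. They come from 3 genes only, and the share of all probes that did so was not counted. For CXCL8 the differences were -2.63 and -1.73 with probe 1, for CXCL10 2.12 and 0.93, and for CXCR4 1.69 and 0.48 with probe 1, each in sheep 30066 and sheep 10081. With 1 array per subset and sheep, this difference between animals has no replicate and was not tested.

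The genes whose pattern lay nearest to each of the 3 were taken as those with the smallest root mean square difference of log2 ratio over the 5 arrays among 612 named genes. For CXCL8 these were CLEC4E (0.40), a lectin that senses mycobacterial glycolipid, IL1B (0.42), an inflammatory cytokine, and FCER1A (0.66), a chain of the high affinity IgE receptor. IL1B stood at log2 ratios of -3.48 and -4.18 in CD26+ cells, -1.10 and -2.63 in CD26- cells and -0.07 on the self-hybridisation, which repeats the order of CXCL8 in each sheep. For CXCL10 the nearest were STAT5A (0.52), a transcription factor listed in the files as MGF, CD80 (0.66), a costimulatory ligand, and CD5 (0.68), a lymphocyte receptor. For CXCR4 they were FZD3 (0.25), a Wnt receptor, XDH (0.33), xanthine dehydrogenase, and PPP1R12A (0.34), a subunit of myosin phosphatase. With 5 arrays that share 1 Cy5 RNA this likeness describes these arrays only.

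Among the other chemokine ligands, CXCL1 came closest to CXCL8, as the seventh nearest gene (root mean square difference 0.92). Its first probe, named GRO in the files, stood at log2 ratios of -3.10 and -4.27 in CD26+ cells of sheep 30066 and sheep 10081, -1.53 and -3.77 in CD26- cells, and -0.66 on the self-hybridisation. In sheep 10081 both subsets were thus low in CXCL1. The difference of -1.03 (SE 0.92, limma adjusted p = 0.992) came from -1.57 in sheep 30066 and -0.50 in sheep 10081, and was 0.087 when CD26- cells of sheep 30066 were left out. Against total DC, CXCL1 differed by -3.02 (SE 1.12) in CD26+ cells and -1.99 (SE 1.12) in CD26- cells, with adjusted p of 0.441 and 0.627.

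The first probes of CCL25 and CCR10 shared a feature, a single high array. CCL25 attracts CCR9-bearing lymphocytes to the gut, and CCR10 is a receptor of CCL28 on lymphocytes of skin and mucosa. The first CCR10 probe stood at log2 ratios of 0.30 and -0.09 in CD26+ cells, 0.41 and 1.33 in CD26- cells and 0.56 on the self-hybridisation. The first CCL25 probe stood at -0.60 and -0.39 in CD26+ cells, -0.40 and 1.19 in CD26- cells and 0.13 on the self-hybridisation. In both, the CD26- array of sheep 10081 was the highest and the other arrays lay within 1 log2 unit of each other. The differences between the subsets, -0.77 (SE 0.48) for CCR10 and -0.89 (SE 0.64) for CCL25, had limma adjusted p of 0.956 and 0.972. They rest on that array, since they were -0.31 and -0.094 once it was left out. The second CCL25 probe was also highest on that array, at 1.63, but its other arrays spread wider. It stood at -1.40 and -1.44 in CD26+ cells, -1.53 in CD26- cells of sheep 30066 and 0.25 on the self-hybridisation.

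The first probes of CCL28, XCL1 and CCR3 and the tested probe of CCR9 differed little between the subsets, by 0.19, -0.13, -0.02 and 0.10 on the log2 scale, with limma adjusted p of 0.9996 for each. XCL1 (lymphotactin, named LPTN in the files) attracts T cells and cross-presenting DC. Its log2 ratios were -0.20 and -0.72 in CD26+ cells, -0.03 and -0.64 in CD26- cells and 0.17 on the self-hybridisation, lower in sheep 10081 in both subsets. CCR9 was not well above background on either CD26+ array. The second CCR3 probe was well above background on 1 array only, CD26+ cells of sheep 30066, where it read 3.78 while the first CCR3 probe read 0.23, so the probes disagreed there by 3.55 and no level of CCR3 is drawn from it.

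**Figure D4:**
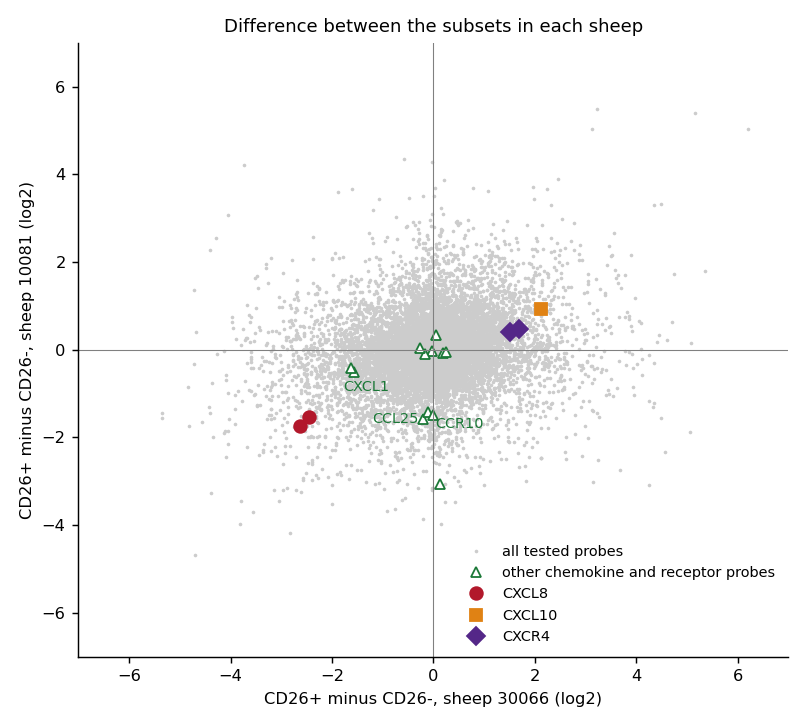
CD26+ minus CD26- difference in log2 ratio in sheep 30066 (horizontal axis) and sheep 10081 (vertical axis). Grey points are the 12938 tested probes measured on all 4 subset arrays, triangles the other chemokine and receptor probes, and filled symbols CXCL8 (circles), CXCL10 (square) and CXCR4 (diamonds). CXCL8 lies at -2.63 and -1.73 with its first probe, CXCL10 at 2.12 and 0.93, and most other chemokine probes lie near 0 on at least 1 axis.

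Over the 10 chemokine and receptor genes with a probe, each by its brighter probe, 3 were higher in CD26+ cells of both sheep (CXCL10, CXCR4 and CCL28) and 6 were lower. The backgrounds over all probes are 27.6% and 28.3%. These counts depend on the probe and on small values. In sheep 30066 and sheep 10081 the other probes of CCL28 (0.20 and -0.07), XCL1 (-0.27 and 0.04) and CCL25 (0.12 and -3.07) had mixed signs. CCR3 counted as lower at -0.025 and -0.024. None of the 10 genes was at least 2-fold higher in both sheep and 1, CXCL8, was at least 2-fold lower. The median difference of the 10 genes was -0.08, against -0.0049 over all probes, and limma called none. The ligand receptors CXCR1, CXCR2 and CXCR3 and the CXCR4 ligand CXCL12 had no probe under their symbols and were not analysed here.

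Genes of the pathways around the 3 were counted from fixed lists. Of 29 genes of NF-kappa-B and inflammatory control, 7 had a tested probe, and 2 were higher and 3 lower in CD26+ cells of both sheep. Over all probes 27.6% were higher and 28.3% lower in both sheep. The median difference of the 7 genes was -0.20 and none was called by limma. Their largest differences were -1.96 (SE 0.66) for IL1B, 1.75 (SE 0.36) for IL1A, the other interleukin 1 cytokine, and 0.67 (SE 0.40) for TNF, with adjusted p of 0.860, 0.778 and 0.956. TNF, like CXCL8 an NF-kappa-B target, stood far above total DC in both subsets, with log2 ratios of 3.82 and 4.05 in CD26+ cells, 3.57 and 2.96 in CD26- cells and -0.04 on the self-hybridisation. CXCL8 lay far below total DC on the same arrays, and other listed genes went different ways. IL6 stood at -2.01 and -3.86 in CD26+ cells, -2.78 and -2.70 in CD26- cells and -0.64 on the self-hybridisation. NFKBIA stood at -1.24 and -2.11 in CD26+ cells, -0.35 and -1.96 in CD26- cells and -0.44 on the self-hybridisation. FOS stood at 2.17 and 1.75, 2.48 and 0.53, and -0.02 in the same order. The part of NF-kappa-B in the CXCL8 values was not tested.

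Of 33 genes of the interferon response, 8 had a tested probe, and 2 were higher and 1 lower in CD26+ cells of both sheep. Over all probes the shares were 27.6% higher and 28.3% lower. The median difference of the 8 genes was 0.20 and none was called by limma. The largest differences were 1.41 (SE 0.96) for MX2, an antiviral GTPase, 0.90 (SE 0.68) for ISG15, a ubiquitin-like modifier, and 0.89 (SE 0.42) for IRF1, a transcription factor of interferon responses, with adjusted p of 0.966, 0.980 and 0.910. IRF1 stood at 1.47 and 1.96 in CD26+ cells, 0.55 and 1.10 in CD26- cells and 0.39 on the self-hybridisation, with both CD26+ arrays above both CD26- arrays, as for 15.0% of all probes. MX2 and ISG15 were lowest in CD26- cells of sheep 10081, at -1.28 and -1.76, where CXCL10 stood at 1.98. On that array MX1 stood at -2.26 and IRF1 at 1.10, so the listed genes went different ways. The part of interferon in the CXCL10 values was not tested. Of 36 genes of chemokine receptor signalling only RAC1 and RGS2 had a tested probe, with differences of -0.54 (SE 0.51, 3 subset arrays) and -0.42 (SE 0.52) and adjusted p of 0.9996 for RAC1 and 0.9996 for RGS2.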

How the data were processed

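Total RNA of the sorted cells (200 ng) was amplified and labelled, per the labels' protocols, with the sample in Cy3 and the common RNA in Cy5 on all 5 arrays, without a dye swap. The deposited array files hold spot intensity values on a linear scale, read by Agilent Feature Extraction 9.5.3.1, and a log10 ratio of processed signals, per the file headers. A deposited log2 value table equals that log10 ratio with its sign turned and its base changed, to within 5e-10, and gave no further alternative.

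Mean signals were corrected for local background by normexp (offset 50), fitted without spots whose background exceeded 5 times the array's median, a choice made in earlier work on these data after results were seen. Loess within arrays followed, with weight 0 for the 536 control spots (limma 3.58.1, R 4.3.3). Outlier spots were left out and the spots of a probe averaged. A probe was tested if its Cy3 signal was well above background on 2 or more of the 5 arrays. The model, lmFit with eBayes of limma, had 3 group means and 2 residual and 2.37 prior degrees of freedom, and a call needed a p under 0.05 after Benjamini-Hochberg adjustment across every tested probe. The procedure was tested on simulated data with independent noise on each array and no sheep effect. That run does not show how it performs on these arrays, where deviations correlated within a sheep.

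Of 15008 probes, 1274 were named to 743 genes, from the files or RefSeq. The members, the gene lists and the rule for named genes (all probes of the 3 genes, other chemokine probes, the 3 largest differences of each pathway list, the 3 nearest genes) were chosen with earlier results of these data known. The labels pair both subsets by animal, and deviations from group means correlated between the arrays of a sheep (r = 0.33). The fit without a sheep term is reported. Alternatives were other background, dye and filter settings, the sheep as a block, and leaving out each array. Precision is limited by there being 5 arrays.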

Additional observations from a re-analysis of the deposited data

How the results depend on the processing

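Of 50 alternative values of the CXCL8, CXCL10 and CXCR4 probes for CD26+ against CD26- cells, all 50 kept their direction and none was called, and of 160 over the 3 comparisons 150 kept their direction and their side of the threshold. Under a replicate block for the sheep the differences stayed the same (-2.18 for CXCL8 probe 1), and the 5 SEs were 0.39 and 0.39 for CXCL8, 0.44 for CXCL10 and 0.45 and 0.42 for CXCR4, with limma adjusted p of 0.577 to 0.612. The block changed no call.

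Without subtraction of the self-hybridisation, which removes that array's error from the test by construction, 1173 probes were called in CD26+ and 1089 in CD26- cells against total DC, among them both CXCL8 probes (-3.99 and -4.14, then -1.82 and -2.14) and, in CD26+ cells, both CXCL1 probes (-3.68 and -3.53). When all spots entered the background model, 236 probes were at least 2-fold lower in CD26+ cells of both sheep, against 384, and the signs of CCL28 (-0.077 and -0.039) and CCR9 (-0.11) turned. For CXCR4 in CD26+ cells against total DC, median centring gave -0.087 and -0.23, and the scanner's processed signals gave -0.11 for probe 2. The cause was not tested.

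Leaving out 1 array at a time, CD26+ minus CD26- ran from -2.50 to -1.85 and -2.34 to -1.65 for CXCL8, 0.46 to 2.60 for CXCL10, and 0.73 to 1.44 and 0.62 to 1.30 for CXCR4. It changed sign for the second CCL25 probe (-3.05 to 0.11), the second CCL28 probe (-0.12 to 0.25), CCR3 (-0.13 to 0.082), CCR9 (-0.0020 to 0.20), CXCL1 (-2.15 to 0.087 and -2.15 to 0.11) and XCL1 (-0.43 to 0.17 and -0.46 to 0.22). Against total DC it changed sign for CXCL10 in CD26- cells (-0.026 to 2.12) and CXCR4 in CD26+ cells (-0.13 to 0.58 and -0.24 to 0.43). A setting without the dim filter, without background subtraction or with scanner signals reversed no other of these values.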
